A study of Homo sapiens with 6 samples.

Results

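EWS-FLI1 activated genes are the genes known to be raised in Ewing sarcoma by the fusion of EWSR1 with the ETS factor FLI1. They were taken by name from a list of 35 genes, of which 34 were in the table of 22604 genes and all of those were among the 13501 genes tested. CD99 was not analysed here. RNA-seq of SKNMC cells, an Ewing sarcoma line that carries the fusion, was measured in 3 groups of 2 libraries each. The cells held an empty vector (EV), a full-length form of the transcription factor NFIB (NFIB WT), or NFIB without its intrinsically disordered region (NFIB ΔIDR). Both forms of NFIB carried a V5 tag. All 3 groups were made by lentiviral delivery in 1 cell line, kept their own NFIB gene and kept EWS-FLI1, so no group lacked the fusion. The comparisons ask how these genes stand when NFIB is raised, and whether that depends on the disordered region.

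EWS-FLI1 joins the activation domain of EWSR1, which is itself disordered, to the DNA-binding domain of FLI1, which reads the core GGAA. At long runs of GGAA the fusion binds in many copies and turns a silent repeat into an active enhancer, while at single ETS sites it acts more like an ordinary ETS factor. Its activated targets include orphan nuclear receptors, homeodomain factors, signalling enzymes, membrane antigens and secreted proteins, several of which tumour cells need for growth. NFIB is a nuclear factor I protein that binds DNA as a dimer at sites holding the half-site TGGCA.

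Library totals ranged from 6664231 to 8465572 counts, and levels are given as CPM, the count divided by the scaled library total and multiplied by 1000000. In the smallest library 1 CPM was 6.67 counts. NFIB was at 176 and 145 CPM in the EV libraries, 969 and 1050 CPM with NFIB WT, and 2230 and 2330 CPM with NFIB ΔIDR. These reads count the vector and the cell's own gene together, and the deleted construct was the more abundant of the pair by 1.17 on the log2 scale. FLI1, whose reads include the 3′ part of the fusion, was at 91.0 and 91.1 CPM in EV, 97.9 and 89.8 CPM with NFIB WT, and 90.1 and 85.6 CPM with NFIB ΔIDR. EWSR1, whose reads include its 5′ part, lay between 204 and 244 CPM. Neither gene passed the test in any comparison (adjusted p from 0.293 to 0.963, edgeR), and the level of the fusion protein was not measured here. Of 7 Ewing sarcoma markers, 6 were in the table and summed to 870 to 922 CPM per library. Of 10 markers of leukocytes, endothelium, epithelium and hepatocytes, 9 were in the table and summed to 261 to 324 CPM. Nearly all of that sum was PTPRC, the leukocyte common antigen, at 251 to 312 CPM, which did not pass the test in any comparison; the endothelial and epithelial markers stayed at or under 2.27 and 8.52 CPM. NFIB WT replicate 1 stood apart from its partner. Over all genes the SD of the log2 difference between the 2 libraries was 0.38 with NFIB WT and 0.28 in each other group, and over the members it was 0.28 with NFIB WT, 0.23 with NFIB ΔIDR and 0.16 in EV. In such bulk libraries, fewer cells that transcribe a gene and less RNA per cell cannot be told apart.

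Most of the activated genes were well expressed in the EV cells. As RPKM, which is CPM divided by the transcript length in kilobases, the highest was CCND1 (cyclin D1, which drives entry into S phase) at 293. It was followed by STEAP1, a membrane antigen, at 179, PTPN13, a protein tyrosine phosphatase, at 160, and CCK, the precursor of the peptide hormone cholecystokinin, at 130. The orphan nuclear receptor NR0B1 and the homeodomain repressor NKX2-2, both classical targets, were at 15.8 and 17 RPKM. At the low end stood CYP4F22 at 3.97, the Hedgehog effector GLI1 at 2.17, the telomerase subunit TERT at 0.389 and the uridine phosphorylase UPP1 at 0.332 RPKM. On the CPM scale 23 of the 34 genes had an EV mean over 100 CPM, and UPP1 had no more than 11 counts in any library.

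NFIB WT raised 5 of the 34 activated genes above EV at an adjusted p under 0.05 (edgeR quasi-likelihood test), and lowered 0. The 5 were CYP4F22, ABHD6, PAPPA, LIPI and RBM11, by 1.53- to 2.36-fold. Of all 13501 genes tested, 0.452% were called higher and 0.163% lower in this comparison. At an unadjusted p under 0.05, 10 members were higher and 3 lower, beside 936 and 867 of the 13501 genes tested. DESeq2 also called 5 members higher and 0 lower, beside 56 and 16 of the 12963 genes it tested. Over the 34 members the log2 fold changes had a median of -0.01, beside 0 for all genes tested, with 16 values above zero and 18 below. The 5 were set apart by the call, and uncalled members followed at 0.39 for GLCE and 0.33 for both KDSR and CCND1. UPP1 at 0.65 and GLI1 at -0.78, both at low levels, were not called either. With either EV library left out no member passed. With either NFIB ΔIDR library left out only CYP4F22 passed, although that group is not part of the comparison and enters only through the shared spread. Without NFIB WT replicate 1 or replicate 2 the median log2 fold change of the members was 0.09 and -0.03. More genes were then called in both directions, among the members and over all genes tested.

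CYP4F22, ABHD6 and LIPI encode enzymes that act on lipids. CYP4F22, a cytochrome P450 that hydroxylates ultra-long-chain fatty acids for the lipids of the skin barrier (chr19:15619336-15663128, hg19), was at 9.83 and 10.9 CPM in EV, 22.6 and 26.1 CPM with NFIB WT, and 10.4 and 9.30 CPM with NFIB ΔIDR. Both NFIB WT libraries lay above all 4 others, and the ΔIDR and EV libraries overlapped. The log2 fold change over EV was 1.24 (SE 0.15, adjusted p = 0.0048, edgeR) with NFIB WT and -0.07 (SE 0.17, adjusted p = 0.897) with NFIB ΔIDR. Directly, NFIB WT was above NFIB ΔIDR by 1.31 (SE 0.15, adjusted p = 0.00115), or 2.47-fold. Its close relatives CYP4F2, CYP4F3, CYP4F8, CYP4F11 and CYP4F12 had between 0 and 2 counts per library.

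ABHD6, which hydrolyses the endocannabinoid 2-arachidonoylglycerol and other monoacylglycerols (chr3:58223259-58281420), was at 73.4 and 83.3 CPM in EV, 129 and 128 CPM with NFIB WT, and 75.8 and 74.7 CPM with NFIB ΔIDR. The ΔIDR pair fell within the range of the EV pair. The gene rose 1.64-fold with NFIB WT (log2 0.71, SE 0.10, adjusted p = 0.0114), and its log2 fold change with NFIB ΔIDR was -0.06 (SE 0.10, adjusted p = 0.834). LIPI, a lipase that releases lysophosphatidic acid and is otherwise largely restricted to testis (chr21:15481134-15583276), was at 76.6 and 72.2 CPM in EV, 126 and 103 CPM with NFIB WT, and 80.6 and 79.1 CPM with NFIB ΔIDR. Its log2 fold change over EV was 0.62 (SE 0.11, adjusted p = 0.0376) with NFIB WT and 0.10 (SE 0.11, adjusted p = 0.729) with NFIB ΔIDR. Again only the NFIB WT pair stood above EV by an amount that passed the test.

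RBM11, an RNA-binding splicing regulator, is the neighbour of LIPI on chromosome 21 (chr21:15588451-15600693), transcribed in the opposite direction from a start 5239 bases away. It was at 73.4 and 74.7 CPM in EV, 123 and 104 CPM with NFIB WT, and 70.5 and 74.1 CPM with NFIB ΔIDR. The neighbours stood alike in each library, with NFIB WT replicate 1 the highest for both. RBM11 rose by 0.62 on the log2 scale with NFIB WT (SE 0.10, adjusted p = 0.0308) and changed by -0.04 (SE 0.11, adjusted p = 0.920) with NFIB ΔIDR. PAPPA, a secreted metalloprotease that cleaves IGF-binding proteins and so frees insulin-like growth factors (chr9:118916070-119164600), was at 414 and 393 CPM in EV, 627 and 606 CPM with NFIB WT, and 355 and 351 CPM with NFIB ΔIDR. It rose 1.53-fold with NFIB WT (log2 0.61, SE 0.08, adjusted p = 0.00682), while its log2 fold change with NFIB ΔIDR was -0.19 (SE 0.08, adjusted p = 0.269). Transcripts of the opposite strand, chiefly PAPPA-AS1, cover 21.1% of its exonic bases. With only the EV and NFIB WT libraries in the fit, CYP4F22 kept its call (adjusted p = 0.0385), and PAPPA, ABHD6, RBM11 and LIPI were at 0.081, 0.0932, 0.149 and 0.182.

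**Figure D1:**
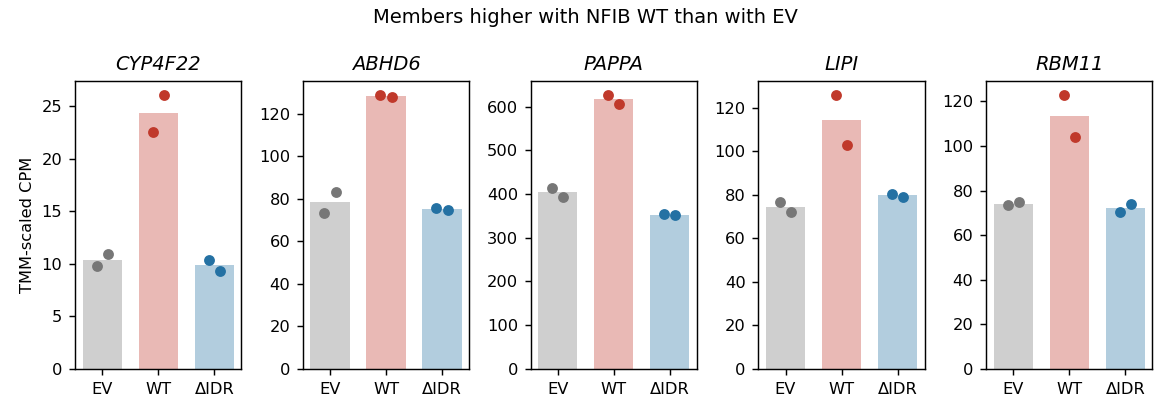
Level in CPM (linear axis from 0) of CYP4F22, ABHD6, PAPPA, LIPI and RBM11 in the EV, NFIB WT and NFIB ΔIDR cells. Bars are means and points the 2 libraries of each group. In every panel both NFIB WT points lie above the 4 others, for CYP4F22 at 22.6 and 26.1 CPM against at most 10.9 CPM.

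Runs of GGAA lie near all of the genes that rose, and their sequences are shown because these repeats are the type of element through which the fusion acts. The reads give transcripts only, so binding at these repeats was not measured and the length of each run in SKNMC was not read. A run was counted as at least 4 uninterrupted copies of GGAA on either strand of the GRCh37 reference (the build of the deposited table, hg19). Each region below is printed 5′ to 3′ on the strand that reads GGAA, with every GGAA in capitals, and comes from the reference genome.
LIPI and RBM11, shared, chr21:15585593-15585676, minus strand: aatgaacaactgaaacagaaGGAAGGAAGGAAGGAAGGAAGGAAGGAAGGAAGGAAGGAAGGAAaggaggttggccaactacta
CYP4F22, chr19:15620649-15620753, minus strand: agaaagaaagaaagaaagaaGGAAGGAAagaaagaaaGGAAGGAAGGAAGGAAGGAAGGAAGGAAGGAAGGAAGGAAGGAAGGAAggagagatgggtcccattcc
ABHD6, chr3:58216875-58216966, plus strand: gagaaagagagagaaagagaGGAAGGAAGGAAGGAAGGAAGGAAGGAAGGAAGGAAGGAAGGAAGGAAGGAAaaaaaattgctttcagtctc
PAPPA, chr9:118904131-118904225, plus strand: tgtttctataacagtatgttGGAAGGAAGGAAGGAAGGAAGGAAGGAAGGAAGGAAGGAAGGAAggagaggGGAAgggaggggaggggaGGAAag

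The shared run on chromosome 21 holds 11 uninterrupted copies and lies between the divergent starts, 2401 bases upstream of LIPI and 2795 bases upstream of RBM11. The run of CYP4F22 holds 12 copies and lies 1333 bases inside the gene in an intron. That of ABHD6 holds 13 copies at 6283 bases upstream, and that of PAPPA 11 copies at 11877 bases upstream. All 5 genes thus had a run of 11 to 13 copies within 20000 bases of the start.

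Runs of like length also lay near activated genes that did not rise, and 3 of these are shown for comparison.
NR0B1, chrX:30328855-30328996, minus strand: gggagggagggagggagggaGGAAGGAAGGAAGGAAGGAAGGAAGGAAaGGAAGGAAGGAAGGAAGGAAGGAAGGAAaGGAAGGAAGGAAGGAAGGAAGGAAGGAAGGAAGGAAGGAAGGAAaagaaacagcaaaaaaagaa
STEAP2, chr7:89837708-89837815, plus strand: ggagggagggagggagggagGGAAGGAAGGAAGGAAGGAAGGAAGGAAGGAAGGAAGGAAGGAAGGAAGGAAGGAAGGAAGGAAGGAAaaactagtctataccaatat
CCK, chr3:42307999-42308105, minus strand: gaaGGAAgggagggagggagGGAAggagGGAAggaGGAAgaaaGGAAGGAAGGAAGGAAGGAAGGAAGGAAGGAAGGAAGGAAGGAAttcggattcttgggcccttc

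NR0B1 has 25 copies of GGAA in its region, the longest run of them 11, at 1380 bases upstream of the start. STEAP2, a metalloreductase of the cell membrane, has an unbroken run of 17 copies at 3205 bases upstream of the start used here. That run lies inside the annotated gene (chr7:89796904-89867451). CCK has a run of 11 copies at 332 bases upstream. With NFIB WT the log2 fold changes over EV of NR0B1, STEAP2 and CCK were -0.18, 0.05 and 0.04, none of which passed the test. A long run close to the start was therefore found both beside genes that rose and beside genes that were not called.

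Across the list, 17 of 34 members (50.0%) had a run within 20000 bases of the start, against 13.6% of all 13501 genes tested. Within 5000 bases the shares were 23.5% and 3.2%. By call, a run within 20000 bases was found for 5 of the 5 genes that rose with NFIB WT, for 10 of the 13 that differed upward between NFIB WT and NFIB ΔIDR, and for 7 of the other 21. Within 5000 bases the counts were 3 of 5, 5 of 13 and 3 of 21, and LIPI and RBM11 count the same run. No run was found within 100000 bases of TERT, SOX6, FOXM1, GLI1 or BCL11B, and none of these 5 passed the test in any comparison. The NFI half-site TGGCA, on either strand, was present in the 300 bases centred on the nearest run for 13 of 28 runs of members (46.4%). Among all runs on the chromosomes searched, at any distance from a gene, it was present for 5621 of 16453 (34.2%). These counts describe the reference sequence and carry no test, since the members were listed as targets of a factor that reads these repeats.

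**Figure D2:**
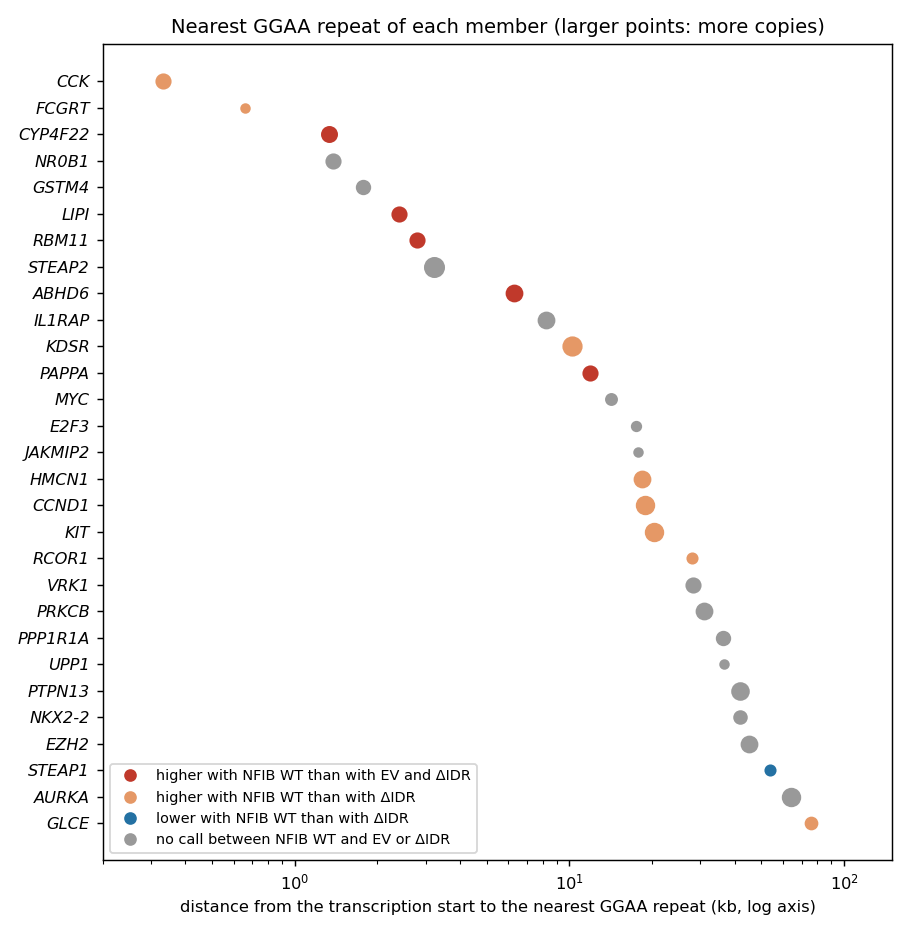
Distance in kilobases (log axis) from the transcription start to the nearest run of at least 4 GGAA copies in GRCh37, for the 29 members with a run within 100000 bases. Point diameter grows with the copies in that run, and colour gives the call. The genes that rose with NFIB WT lie between 1333 and 11877 bases, and uncalled genes such as NR0B1 at 1380 bases lie among them.

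NFIB ΔIDR, compared with EV, lowered 1 of the 34 members and raised 0. Of all genes tested, 0.356% were called lower and 0.296% higher. At an unadjusted p under 0.05, 9 members were lower and 1 was higher, beside 1002 lower and 1049 higher of the 13501 genes tested. DESeq2 called the same numbers of members as edgeR at the adjusted threshold, beside 61 lower and 31 higher of the 10333 genes it tested. The median log2 fold change was -0.11, beside 0 for all genes, with 27 values below zero and 7 above. Most members thus lay slightly under EV with NFIB ΔIDR, by amounts that did not pass singly. The gene that fell was KIT, the receptor tyrosine kinase for stem cell factor, at 154 and 160 CPM in EV, 142 and 141 CPM with NFIB WT, and 111 and 118 CPM with NFIB ΔIDR. Its levels were in the order EV, NFIB WT, NFIB ΔIDR with no overlap. KIT fell by 0.45 on the log2 scale with NFIB ΔIDR (SE 0.09, adjusted p = 0.0489, edgeR), or 1.37-fold, and its log2 fold change with NFIB WT was -0.15 (SE 0.09, adjusted p = 0.473). The call sits at the threshold, with an adjusted p of 0.0524 under upper quartile scaling. Leaving out any 1 EV or NFIB ΔIDR library took the call away, with log2 fold changes of KIT from -0.49 to -0.41. The NFIB WT libraries enter only through the shared spread. Leaving out either of them raised the number called lower, among the members and over all genes tested.

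Set directly against each other, NFIB WT gave higher levels than NFIB ΔIDR for 13 of the 34 members and a lower level for 1. Of all genes tested, 5.52% were called higher and 5.19% lower in this comparison. The median log2 difference was 0.13, beside 0 for all genes, with 24 values above zero and 10 below. DESeq2 called 11 higher and 0 lower, beside 430 and 295 of the 13401 genes it tested. The 13 differences ran from 0.30 to 1.31 on the log2 scale and included the 5 genes that rose over EV. The comparisons share their libraries, so the values of each are given side by side and are not independent of one another. With either NFIB ΔIDR library left out, only CYP4F22 and PAPPA were called higher. Without NFIB WT replicate 1 or replicate 2 the median log2 difference was 0.22 and 0.08, and more were called higher, among the members and over all genes. Without either EV library it was 0.13, and fewer were called higher in both.

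For the genes that rose, the direct log2 differences after CYP4F22 were 0.80 for PAPPA (SE 0.08, adjusted p = 0.000433), 0.77 for ABHD6 (SE 0.10, adjusted p = 0.00138), 0.65 for RBM11 (SE 0.11, adjusted p = 0.0045) and 0.51 for LIPI (SE 0.11, adjusted p = 0.0172). Each was therefore at least 1.43-fold higher in the cells with full-length NFIB than in those with the deleted form. The cells with the deleted form also had more NFIB reads, so the deletion and the amount of construct cannot be told apart.

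**Figure D3:**
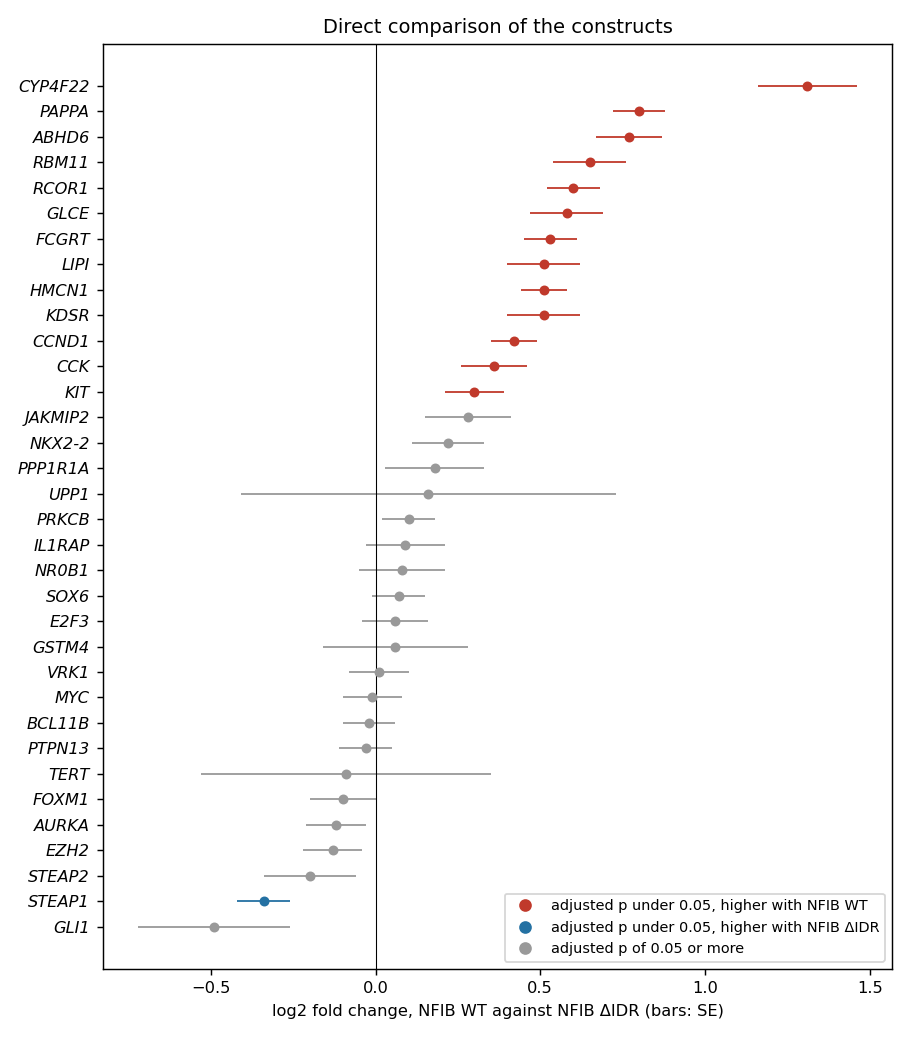
Log2 difference of NFIB WT against NFIB ΔIDR for the 34 members, with the standard error as bars, ordered by size. Red points were called higher with NFIB WT, blue lower, and grey were not called at an adjusted p under 0.05. CYP4F22 leads at 1.31, and STEAP1 at -0.34 is the only member called lower.

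Among regulators of transcription and the cell cycle, RCOR1 and CCND1 also differed directly. RCOR1, the scaffold of the CoREST repressor complex with LSD1, was at 344 and 354 CPM in EV, 421 and 412 CPM with NFIB WT, and 278 and 272 CPM with NFIB ΔIDR. The EV libraries lay between the other pairs, with a log2 fold change over EV of 0.26 (adjusted p = 0.194) with NFIB WT and -0.34 (adjusted p = 0.078) with NFIB ΔIDR. The direct difference was 0.60 (SE 0.08, adjusted p = 0.00159). CCND1 was at 1260 and 1250 CPM in EV, 1610 and 1550 CPM with NFIB WT, and 1200 and 1160 CPM with NFIB ΔIDR. Its difference over EV was 1.26-fold with NFIB WT and did not pass (adjusted p = 0.0736), while the direct difference did (log2 0.42, SE 0.07, adjusted p = 0.00524). With the replicate number as a block, CCND1 passed over EV as well (adjusted p = 0.0303). LTO1, on the other strand, covers 10.4% of the exonic bases of CCND1.

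Membrane and matrix genes made up a further group. HMCN1, the large extracellular matrix protein hemicentin, was at 847 and 814 CPM in EV, 985 and 944 CPM with NFIB WT, and 660 and 693 CPM with NFIB ΔIDR. FCGRT, the heavy chain of the neonatal Fc receptor, was at 196 and 205 CPM in EV, 225 and 217 CPM with NFIB WT, and 157 and 149 CPM with NFIB ΔIDR. Both genes had EV between the other groups and nearer to NFIB WT. The direct log2 differences were 0.51 for HMCN1 (SE 0.07, adjusted p = 0.00319) and 0.53 for FCGRT (SE 0.08, adjusted p = 0.00442). Against EV neither passed: with NFIB WT the log2 fold changes were 0.22 and 0.14 (adjusted p = 0.254 and 0.496), and with NFIB ΔIDR they were -0.30 and -0.39 (adjusted p = 0.104 and 0.0706).

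KIT in NFIB WT cells exceeded its level in NFIB ΔIDR cells by 0.30 (SE 0.09, adjusted p = 0.0489), again at the threshold, and DESeq2 did not call it (adjusted p = 0.129). STEAP1 took the other direction, at 229 and 241 CPM in EV, 221 and 224 CPM with NFIB WT, and 275 and 285 CPM with NFIB ΔIDR. It was 1.26-fold lower with NFIB WT than with NFIB ΔIDR (log2 -0.34, SE 0.08, adjusted p = 0.0258), and its adjusted p against EV was 0.684 and 0.174. STEAP1 and KIT, like CCK, lost their direct call when any 1 EV or NFIB ΔIDR library was left out. STEAP2, its neighbour on chromosome 7, was at 319 and 281 CPM in EV, 365 and 255 CPM with NFIB WT, and 360 and 352 CPM with NFIB ΔIDR. The NFIB WT libraries of STEAP2 spanned all the others, and it was not called. Its log2 fold change over EV was -0.23 without NFIB WT replicate 1 and 0.29 without replicate 2, and each passed the test.

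The remaining members with a direct difference were enzymes and a peptide hormone. GLCE, the epimerase that makes iduronic acid in heparan sulfate, was at 124 and 132 CPM in EV, 188 and 148 CPM with NFIB WT, and 111 and 114 CPM with NFIB ΔIDR. KDSR, a reductase of early sphingolipid synthesis, was at 251 and 225 CPM in EV, 331 and 267 CPM with NFIB WT, and 217 and 204 CPM with NFIB ΔIDR. For both genes NFIB WT replicate 1 was well above replicate 2. The direct log2 difference was 0.58 for GLCE (SE 0.11, adjusted p = 0.0116) and 0.51 for KDSR (SE 0.11, adjusted p = 0.0181), and neither passed against EV with either construct (adjusted p from 0.18 to 0.507). CCK was at 201 and 225 CPM in EV, 205 and 232 CPM with NFIB WT, and 175 and 165 CPM with NFIB ΔIDR. Its NFIB WT and EV levels overlapped (log2 0.04, adjusted p = 0.896), the direct difference was 0.36 (SE 0.10, adjusted p = 0.0396), and an unnamed transcript of the other strand covers 32.5% of its exonic bases.

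**Figure D4:**
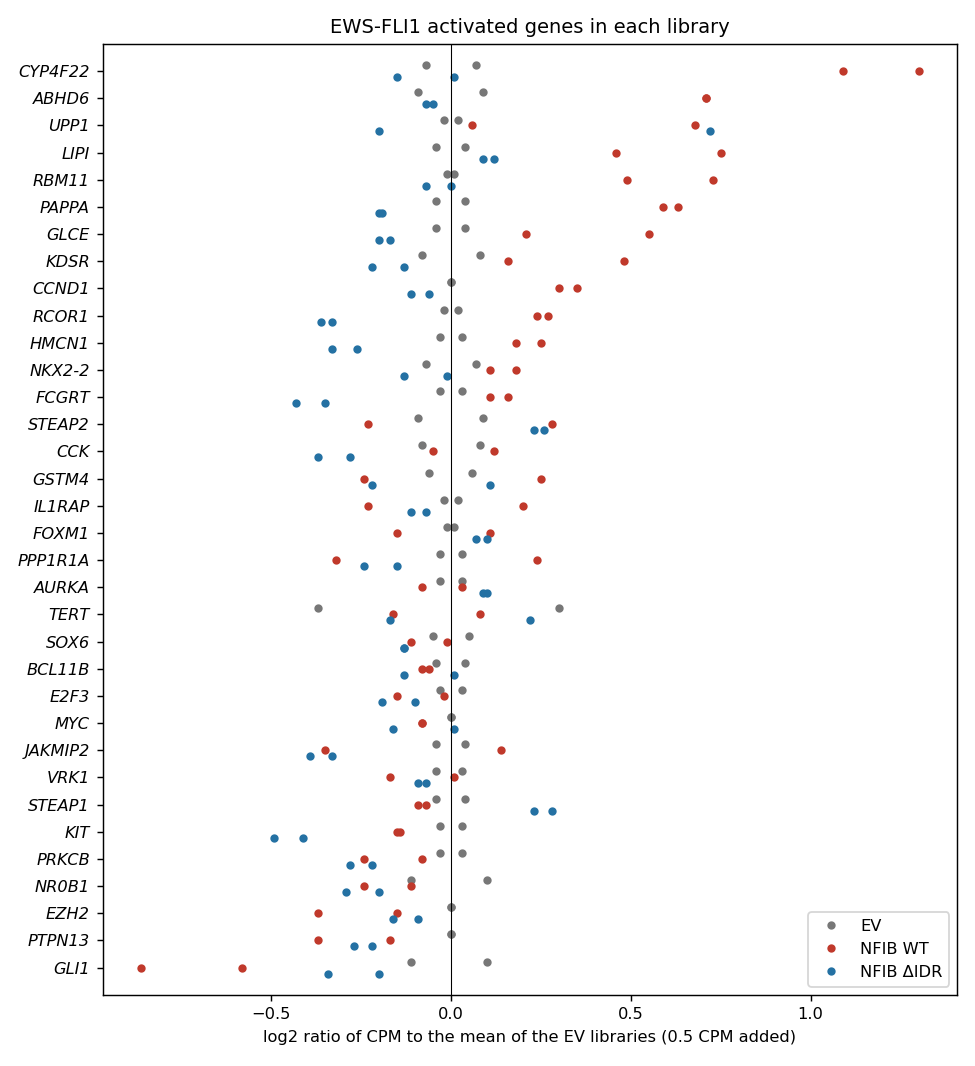
Log2 ratio of each library's CPM to the EV mean (0.5 CPM added to both) for the 34 members, with 2 points per group, ordered by the log2 fold change of NFIB WT over EV. CYP4F22, ABHD6, LIPI, RBM11 and PAPPA were the members called higher with NFIB WT than with EV. Most NFIB ΔIDR points lie a little under zero, with library medians of -0.13 and -0.15.

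Of the 34 members, 20 were not called in any comparison, NR0B1 and NKX2-2 among them. For the 16 of these with an EV mean over 20 CPM, no log2 fold change exceeded 0.36 in size in any comparison. NR0B1, an orphan nuclear receptor on which Ewing sarcoma cells depend, was at 23.2 and 26.9 CPM in EV, 21.1 and 23.2 CPM with NFIB WT, and 20.4 and 21.7 CPM with NFIB ΔIDR. Its log2 fold changes over EV were -0.18 and -0.25 (SE 0.13 for NFIB WT, adjusted p = 0.566 and 0.394). NKX2-2 was at 37.1 and 33.6 CPM in EV, 38.1 and 40.1 CPM with NFIB WT, and 35 and 32.2 CPM with NFIB ΔIDR, with adjusted p of 0.579 and 0.832 over EV. NKX2-2 shares 43.9% of its exonic bases with transcripts of the other strand, chiefly NKX2-2-AS1. Neither gene passed the test in any comparison.

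The transcription factors BCL11B, SOX6, MYC and GLI1 were not called either. BCL11B, a zinc-finger factor of neural and T-cell development, had log2 fold changes of -0.07 with NFIB WT and -0.06 with NFIB ΔIDR, and SOX6, an HMG-box factor of cartilage and muscle, had -0.06 and -0.13. MYC was at 288 and 289 CPM in EV, 273 and 274 CPM with NFIB WT, and 259 and 291 CPM with NFIB ΔIDR, with log2 fold changes of -0.08 and -0.07 (SE 0.09 for each). GLI1, the effector of Hedgehog signalling, was at 7.23 and 8.48 CPM in EV, 5.10 and 4.12 CPM with NFIB WT, and 6.09 and 6.79 CPM with NFIB ΔIDR. The NFIB WT pair of GLI1 lay below all the others, but the log2 fold change over EV of -0.78 did not pass (SE 0.22, adjusted p = 0.158). With no filter on low counts it did (adjusted p = 0.0358), as it did by the fold of 1.5 with unadjusted p and without NFIB WT replicate 1.

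EZH2, the methyltransferase of Polycomb repressive complex PRC2, was at 393 and 391 CPM in EV, 304 and 353 CPM with NFIB WT, and 351 and 369 CPM with NFIB ΔIDR. Its log2 fold changes over EV were -0.25 (adjusted p = 0.262) and -0.12 (adjusted p = 0.573). The mitotic kinase AURKA had -0.02 and 0.09, the G2/M transcription factor FOXM1 -0.01 and 0.08, the chromatin kinase VRK1 -0.08 and -0.08, and E2F3, a transcription factor of S-phase entry, -0.08 and -0.14. TERT had between 8 and 17 counts per library, and its level could not be told from EV at this depth.

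Among signalling proteins, PTPN13 was at 1370 and 1370 CPM in EV, 1060 and 1210 CPM with NFIB WT, and 1140 and 1180 CPM with NFIB ΔIDR. Both constructs lay below EV in this gene, with log2 fold changes of -0.27 and -0.24, without passing (adjusted p = 0.201 and 0.195). PRKCB, protein kinase C beta, also lay below EV with both constructs, with log2 fold changes of -0.16 and -0.25, and was not called. IL1RAP, the shared receptor subunit for interleukin 1 and related cytokines, was at 404 and 394 CPM in EV, 457 and 340 CPM with NFIB WT, and 370 and 380 CPM with NFIB ΔIDR, so the NFIB WT pair spanned all other libraries. Its log2 fold change over EV passed the test at -0.23 without NFIB WT replicate 1 and at 0.20 without replicate 2.

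PPP1R1A, an inhibitor of protein phosphatase 1, was at 142 and 149 CPM in EV, 117 and 172 CPM with NFIB WT, and 124 and 132 CPM with NFIB ΔIDR. JAKMIP2 was at 474 and 498 CPM in EV, 382 and 537 CPM with NFIB WT, and 370 and 388 CPM with NFIB ΔIDR. In both genes NFIB WT replicate 1 was low and replicate 2 the highest library of all. GSTM4, a glutathione transferase, had log2 fold changes of 0.01 and -0.04 over EV, but its 54 to 75 counts stood beside GSTM1, GSTM2 and GSTM3 at 111 to 990 counts and GSTM5 at 12 to 37 counts, and are uncertain. UPP1 had 4 to 11 counts per library, and its lowest and highest levels, 0.541 and 1.48 CPM, were both in the NFIB ΔIDR group.

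A further list of 20 EWS-FLI1 activated genes was set beside the members. Like the members, it was chosen with earlier results of these data known, so its counts are descriptive and give no independent support. Of the 20 genes, 18 were tested. NFIB WT raised 3 of these over EV and lowered 0, beside 0.452% and 0.163% of all genes tested, with a median log2 fold change of 0.16. NPY1R, a neuropeptide Y receptor, was at 232 and 225 CPM in EV, 450 and 339 CPM with NFIB WT, and 195 and 197 CPM with NFIB ΔIDR (log2 0.79 with NFIB WT, adjusted p = 0.0187). CAV1, the coat protein of caveolae, rose by 0.87 on the log2 scale (adjusted p = 0.0114). Neither NPY1R nor CAV1 was called with NFIB ΔIDR. NFIB ΔIDR raised 0 and lowered 0 of the 18 by edgeR, and DESeq2 called 1 higher. At an unadjusted p under 0.05, 4 were higher and 2 lower, beside 1049 and 1002 of the 13501 genes tested. Directly, 6 were higher with NFIB WT and 2 lower, beside 5.52% and 5.19% of all genes tested. The 6 were led by NPY1R at 1.01 and CAV1 at 0.94. Of the 2 lower, MYOM2, a sarcomere protein, had the smaller p and was at -0.86. The other was at -0.91, with no more than 11.9 CPM in any library. DESeq2 called 5 higher and 1 lower.

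Genes known to be lowered by EWS-FLI1 were counted the same way. Of 23 listed, 18 were tested, and 1 rose over EV with NFIB WT, beside 0.452% of all genes tested. This was LOX, the collagen cross-linking lysyl oxidase, at 175 and 170 CPM in EV, 287 and 238 CPM with NFIB WT, and 159 and 150 CPM with NFIB ΔIDR (log2 0.61, adjusted p = 0.0285). NFIB WT lowered 0 of these genes by edgeR or DESeq2. At an unadjusted p under 0.05, 5 were higher and 2 lower with NFIB WT, beside 936 and 867 of the 13501 genes tested. The median log2 fold change was 0.24, beside 0 for all genes tested, with 13 values above zero and 5 below. With NFIB ΔIDR, 0 were called in either direction by either tool. At an unadjusted p under 0.05, 6 were higher and 2 lower, beside 1049 and 1002 of the 13501 genes tested. Directly, 3 were higher and 6 lower with NFIB WT (3 and 3 by DESeq2), beside 5.52% and 5.19% of all genes tested, and 9 were not called. IGFBP3, a carrier of insulin-like growth factors, had the log2 difference of -1.75 (adjusted p = 0.013) at no more than 5.41 CPM in any library.

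Of 21 cell cycle genes, 0 were called against EV with either construct by edgeR or DESeq2. At an unadjusted p under 0.05, 2 were higher and 2 lower with NFIB WT, beside 936 and 867 of the 13501 genes tested. With NFIB ΔIDR, 1 was higher and 3 lower, beside 1049 and 1002 of the 13501. Directly, CCNE2, cyclin E2, was higher with NFIB WT (log2 0.36, adjusted p = 0.0306), and MKI67, the proliferation antigen, was lower (log2 -0.71, adjusted p = 0.0293). These were 1 higher and 1 lower of 21, beside 5.52% and 5.19% of all genes tested, which is near the background, and DESeq2 called 1 higher and 0 lower. MKI67 was at 631 and 662 CPM in EV, 337 and 568 CPM with NFIB WT, and 738 and 748 CPM with NFIB ΔIDR, the lowest value being that of NFIB WT replicate 1. Without that library the log2 fold changes over EV were 1.33 for CYP4F22, 0.71 for ABHD6, 0.59 for PAPPA, 0.49 for RBM11 and 0.47 for LIPI, and the direct differences were 0.40 for GLCE and 0.35 for KDSR. All 7 passed the test in that fit.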

How the data were processed

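RNA-seq counts of 6 SKNMC libraries were used. Per the methods, CORALL libraries of total RNA were sequenced in biological duplicate. The authors converted reads with CASAVA 2.19, aligned them to hg19 with STAR 2.4.0h, used featureCounts with RefSeq genes, and deposited the raw counts, not normalized. How strand, multi-mapping reads and molecular identifiers were handled is not given in these sources. The deposited transcript length, in bases, served for RPKM, and the middle of the deposited window around each start was taken as the transcription start. Groups were read from the labels. All columns of samples were used.

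Low genes were removed by filterByExpr, with its minimum count of 10 and minimum total of 15. After TMM scaling, 1 quasi-likelihood model over the 6 libraries, with group as its term, was fitted in edgeR 4.0.16 (R 4.3.3). A call is a Benjamini-Hochberg adjusted p under 0.05 over the 13501 genes tested. Errors of log2 values are standard errors of that fit. CPM values use the TMM-scaled library totals. The estimated common coefficient of biological variation was 0.0776, and p-values measure the spread within 3 pairs of libraries. Library totals limit counting precision, and intervals for counting error were not added.

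Members and lists were chosen with earlier results of these data known. Members past the threshold in any comparison were given with every library's value, others by level or range, and up to 3 genes by smallest p in each further list, of which 1 is not reported here. The alternatives were DESeq2 1.42.0, other scalings and filters, fits of the 2 groups compared, a replicate block, robust estimation, a fold of 1.5 with unadjusted p (the study's thresholds, applied to the edgeR fit), and leaving out each library. GGAA runs and TGGCA were searched on both strands of GRCh37, and exon overlaps were taken from GENCODE mapped to that build. Replicate numbers gave correlations of deviations of 0.153, 0.0156 and 0.0539 between groups. The fits were tested on simulated data with 200 changed genes. Figures were drawn with matplotlib 3.10.9.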

Additional observations from a re-analysis of the deposited data

Results flagged for a closer look

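For 14 members the effect over EV differed between full-length and deleted NFIB, by the test of NFIB WT against NFIB ΔIDR itself. On the log2 scale the differences were 1.31 for CYP4F22, 0.80 for PAPPA, 0.77 for ABHD6, 0.65 for RBM11, 0.60 for RCOR1, 0.58 for GLCE, 0.53 for FCGRT, 0.51 each for HMCN1, KDSR and LIPI, 0.42 for CCND1, 0.36 for CCK, 0.30 for KIT and -0.34 for STEAP1. NFIB itself differed between these groups by -1.17, so the deletion and the amount of construct cannot be told apart.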

How the results depend on the processing

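DESeq2, other scalings, a filter of 1 CPM and robust estimation left the count of members higher with NFIB WT than EV at 5. It was 8 with no filter on low counts, 1 with the 2 groups fitted alone, and 0 to 12 when 1 library was left out. Lower than EV with NFIB WT (main count 0), there were 2 with no filter, 1 by fold 1.5 with unadjusted p, and 0 to 5 with 1 library left out. For NFIB ΔIDR against EV, 2 were higher in the fit of those groups alone and 0 to 2 with 1 library left out, where the main count was 0. The 1 member that fell became 0 with upper quartile scaling or the fold rule, 7 with no filter, 12 in the fit of those groups alone, and 0 to 12 with 1 library left out. For NFIB WT against NFIB ΔIDR, 5 were higher by the fold rule and 2 to 16 with 1 library left out, and 0 were lower by DESeq2, the fit of those groups alone or the fold rule, with 0 to 2 when 1 library was left out. Leaving out 1 library also moved the counts over all genes in each comparison. The other settings did so too. With NFIB WT, 22 genes were lower than EV in the main fit, 260 with no filter and 236 by the fold rule. With NFIB ΔIDR, 48 genes were lower in the main fit, 274 with no filter and 973 with those groups alone, where 910 were higher. Directly, the fold rule called 580 genes higher and 768 lower. The median log2 fold change without NFIB WT replicate 1 was 0.09 over EV and 0.22 over NFIB ΔIDR. The cause was not tested.

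With the replicate number as a block, counts were 6 higher with NFIB WT over EV, 3 lower with NFIB ΔIDR and 13 higher directly. Over all genes the same counts were 126, 121 and 1044. The replicate numbers were not shown to pair the libraries, so this replicate block stands as a setting only. Over all genes the count higher with NFIB WT than EV was 61, against 281 with no filter, 126 with the block and 10 with those groups alone. Of the 20 member calls under 15 alternatives, 224 results kept the call, 76 lost it and 0 reversed. Depth limits UPP1, TERT and GSTM4.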
